A study of Macaca mulatta with 102 samples.

Results

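The genes described here encode the complexes of the mitochondrial respiratory chain and the ATP synthase that it drives, measured in T cells of rhesus macaques before or after hematopoietic cell transplantation (HCT). They were chosen by symbol: genes whose name starts with NDUFA, NDUFB, NDUFC, NDUFS, NDUFV, UQCR, COX4, COX5, COX6, COX7, COX8 or ATP5, together with the SDH genes. The rule took in 64 of the 14132 genes with a single-gene probe set on the array, and each gene was represented by its probe set with the highest mean over all arrays. Of these, 63 passed the filter on dim probe sets, and COX4I2, an isoform gene best known from lung, did not, with a mean of 4.55 on the log2 scale. Complex I is represented by 24 genes, complex II by 3, complex III by 6, complex IV by 9 and complex V, the ATP synthase, by 14. The other 8 carry a matching prefix without being subunits: 6 NDUFAF assembly factors of complex I, the ATP synthase inhibitor ATP5IF1, and NDUFA4L2, a paralog of NDUFA4. ATP5G1 is an older name of ATP5MC1, and the platform annotation lists both as separate entries. COX4I1, COX5B, COX7A2L, NDUFAB1, SDHD and ATP5F1A were not analysed here.

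The respiratory chain passes electrons from NADH (complex I) and succinate (complex II, also an enzyme of the Krebs cycle) through ubiquinone to complex III, cytochrome c and complex IV, where oxygen is reduced. The protons that complexes I, III and IV move across the inner membrane drive complex V to make ATP. Resting T cells rely largely on oxidative metabolism, and activated T cells raise glycolysis and also enlarge their mitochondria and their respiratory capacity.

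CD3-positive T cells were sorted from blood, and their RNA was hybridised to Affymetrix arrays. The 102 arrays came from 66 animals in 16 groups, and the control group (Healthy.Control, untransplanted) held 46 arrays from 45 animals. Allogeneic recipients were grouped by the immunoprophylaxis in the group name and by time. NoRx.F, read here as no prophylaxis, held 4 animals at days 6 to 12 after transplant, and Siro.F, given the mTOR inhibitor sirolimus, held 4 at days 12 to 24. Tacrolimus with methotrexate formed Tac.Mtx.D14 (n = 3, day 14) and Tac.Mtx.F (n = 3, days 26 to 67). Sirolimus with belatacept, which blocks CD28 costimulation, formed Bela.Siro.D14 (n = 3, day 14), Bela.Siro.D30 (n = 2, day 30) and Bela.Siro.F (n = 7, days 26 to 105). Animals given the OX40 ligand antibody KY1005 formed KY1005.D14, with 2 arrays from days 14 to 16, as well as KY1005.F, with 3 arrays from days 16 to 23. Together with sirolimus it formed KY1005.Siro.D14 (n = 5, day 14), KY1005.Siro.D28 (n = 5, day 28) and KY1005.Siro.F (n = 4, days 97 to 106). Animals transplanted with their own cells formed Auto.D14 (n = 3, day 14), Auto.D36 (n = 4, days 30 to 36) and Auto.D100 (n = 4, day 100). The labels give no conditioning, donor or age, and they do not say what the ending F stands for.

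Values are log2 intensities, and differences between groups are log2 differences ± SE from limma with the labelled batch as a factor. A gene passed the threshold at an adjusted p under 0.05 over the 31710 probe sets tested. All comparisons with healthy controls share the same control arrays. The KY1005 groups all lie in batch 6, and allogeneic and autologous arrays share only batch 2. In bulk RNA, fewer cells of a type and less RNA per cell cannot be told apart. Of 10 T cell markers 4 were tested (CD5, CD6, ZAP70 and LAT), and their mean was 10.06 to 10.68 in healthy arrays and 10.01 to 10.42 in NoRx.F. The log2 ratio between actin control probe sets at the 3' and 5' ends, a sign of RNA quality, exceeded 2.5 on 6 arrays, which were 4 healthy arrays and the Auto.D14 arrays of R.201 and R.202.

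T cells of NoRx.F had higher levels of genes of every complex of the chain. In this group 43 of the 63 tested genes were higher than in healthy controls and 2 were lower by limma. That is 71.4% called against a background of 27.5% of all probe sets, and 68.3% higher against 13.5%. The genes stand on their brightest probe sets, whereas the background holds every probe set tested, dimmer ones included. Over all 97 tested probe sets of these genes 60 passed, 53 higher and 7 lower. The median difference over the 63 genes was 0.58, a 1.49-fold higher level, beside 0.01 over all probe sets. The mean of the 63 genes was 10.08 in R.53, 10.42 in R.50, 10.03 in R.51 and 10.35 in R.52. Healthy arrays ran from 9.52 to 9.90 with a median of 9.74, so every NoRx.F array lay above every healthy array. For 19 genes each of the 4 arrays exceeded the highest healthy value, which held for 2.89% of all probe sets.

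**Figure D1:**
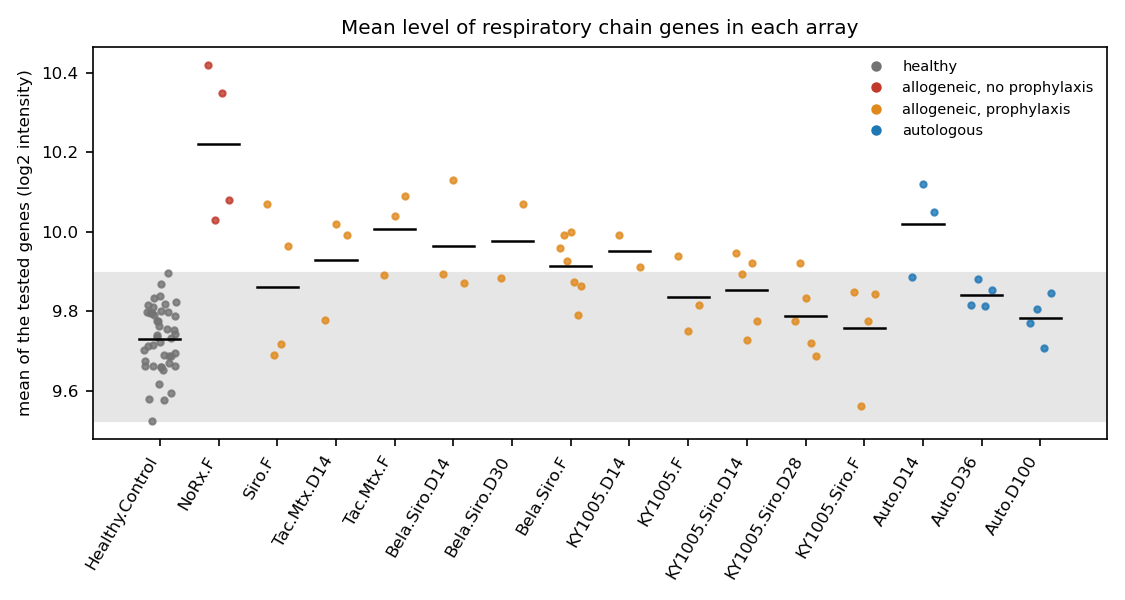
Mean log2 intensity of the 63 tested respiratory chain genes in each array (points) by group, with the group mean as a bar and the range of the healthy arrays shaded. The 4 NoRx.F arrays sit between 10.03 and 10.42, above the healthy range of 9.52 to 9.90.

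Complex I, the NADH dehydrogenase, had 20 of 24 genes higher and 1 lower in NoRx.F, with a median difference of 0.64. NDUFB3, an accessory subunit of the membrane arm, stood at 11.07 in R.53, 11.43 in R.50, 10.89 in R.51 and 11.14 in R.52, against healthy values from 9.63 to 10.71 with a median of 10.15. The groups did not overlap, and the difference was 1.02 ± 0.13 (limma adjusted p = 2.13e-09). NDUFB7, another accessory subunit, rose by 1.00 ± 0.11 (limma adjusted p = 1.5e-11). Among the core subunits, NDUFS1, which carries iron-sulfur clusters, rose by 0.64 ± 0.10 and NDUFV1, which holds the NADH site, by 0.52 ± 0.14. NDUFV2, the core subunit beside NDUFV1, was lower by -0.66 ± 0.18 on its brightest probe set, whereas its other probe set was higher by 0.50.

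Of the 3 complex II genes, SDHB and SDHC rose. SDHB, the iron-sulfur subunit, was 10.07, 10.67, 9.74 and 10.38 in R.53, R.50, R.51 and R.52, where healthy arrays ran from 9.23 to 9.81. R.51 lay inside the healthy range and the others above it, and the difference was 0.64 ± 0.11 (limma adjusted p = 1.9e-06). SDHC, a membrane anchor, rose by 0.59 ± 0.17. SDHA, the flavoprotein that oxidises succinate, differed by 0.02 ± 0.13 (limma adjusted p = 0.94).

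Complex III had 4 of 6 genes higher and 0 lower. UQCRC1, a core protein, rose by 0.70 ± 0.10, UQCRFS1, the Rieske iron-sulfur protein, by 0.67 ± 0.14, and UQCRB, a small subunit that binds ubiquinone, by 1.06 ± 0.30. UQCRC2, the other core protein, differed by 0.39 ± 0.29 and did not pass (limma adjusted p = 0.341). Complex IV, cytochrome c oxidase, had 4 of 8 genes higher and 1 lower. COX6B1, a subunit on the intermembrane side, was 12.09, 12.64, 12.26 and 12.56 in R.53, R.50, R.51 and R.52, all above the highest healthy value of 11.76, and rose by 1.00 ± 0.11. COX7A1, best known as the muscle isoform of subunit 7A, was 9.51, 9.13, 9.31 and 9.43 in the same order, against 7.78 to 9.18 in healthy arrays. Only R.50 overlapped the healthy arrays, and COX7A1 rose by 1.07 ± 0.20 (limma adjusted p = 1.37e-05). COX6A2, another muscle isoform, differed by 0.03 ± 0.13. COX5A rose by 0.58 ± 0.12. COX7A2, the widely expressed form of subunit 7A, was lower by -0.66 ± 0.16 on its brightest probe set and higher by 0.59 on the other.

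Complex V had 10 of 14 genes higher and 0 lower. ATP5F1B, the catalytic beta subunit, rose by 0.71 ± 0.21 on its brightest probe set, but another probe set of it was lower by -1.13 (limma adjusted p = 0.00705), and the mean of its probe sets gave -0.21. The ATP synthase inhibitor ATP5IF1 had the largest rise of the 63 genes. It stood at 10.07 in R.53, 10.45 in R.50, 10.51 in R.51 and 10.56 in R.52, against 8.84 to 9.51 in healthy arrays. The groups did not overlap, and the difference was 1.18 ± 0.10, a 2.27-fold rise (limma adjusted p = 5.98e-17), while a second, dimmer probe set gave 0.20 (limma adjusted p = 0.218). Of the 6 assembly factors of complex I, NDUFAF6 rose by 0.51 and NDUFAF1 by 0.50, both named after their values were seen. Probe sets of a gene did not always move together: in ATP5F1B, ATP5F1C, COX7A2, NDUFS6 and NDUFV2 (5 genes), probe sets passed the threshold in opposite directions.

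**Figure D2:**
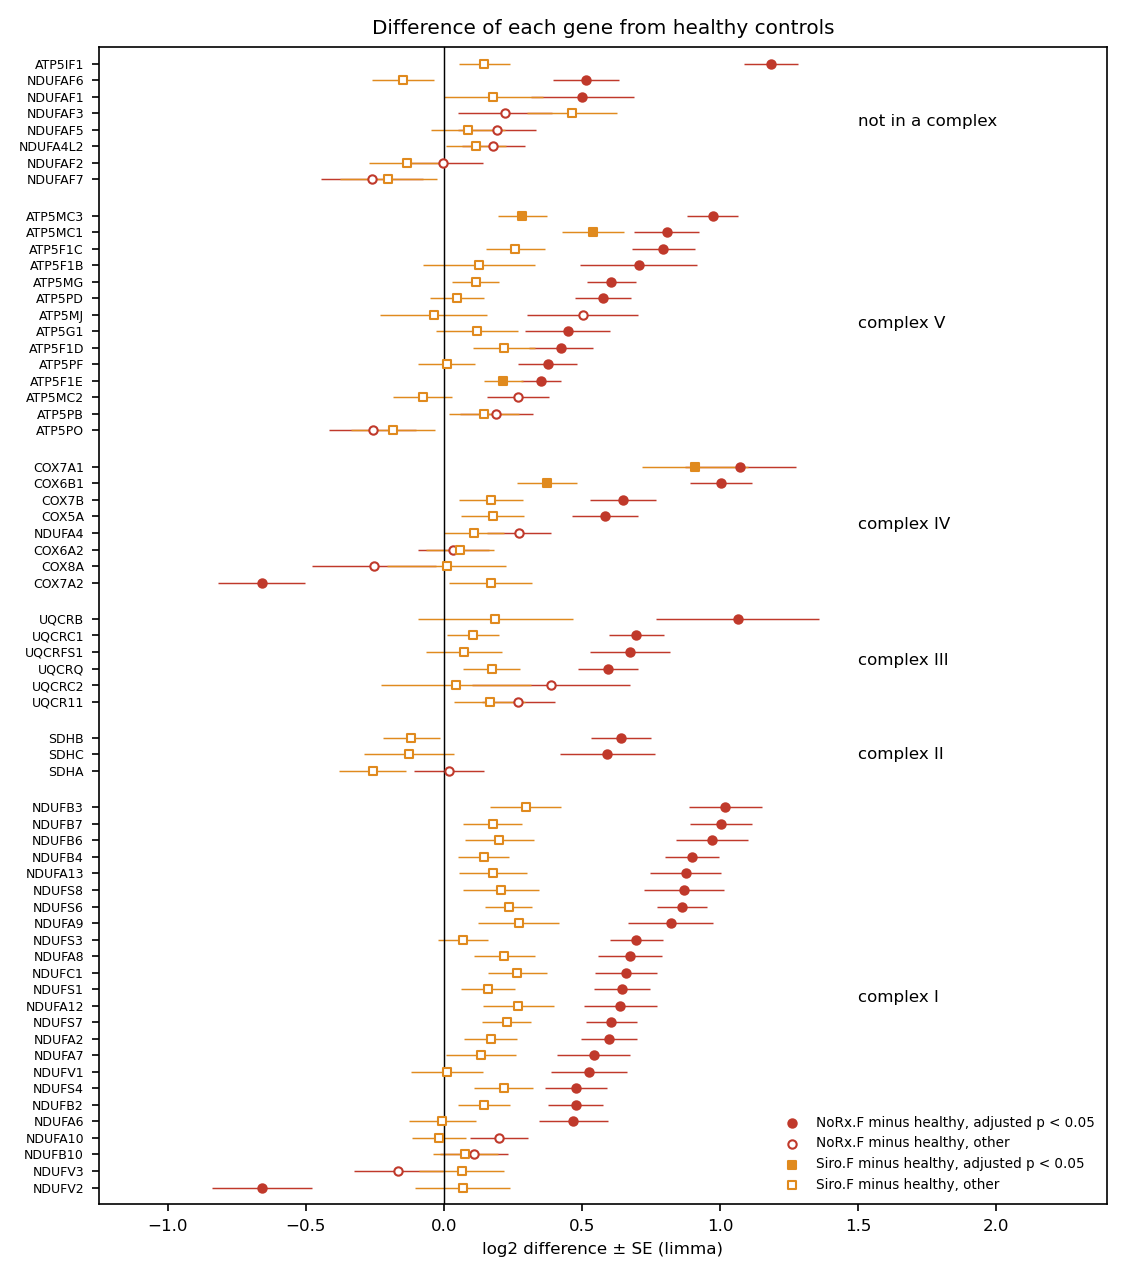
Log2 difference from healthy controls ± SE for each tested gene, by complex, in NoRx.F and Siro.F, with filled points at an adjusted p under 0.05. In NoRx.F 43 genes are called higher and 2 lower, and in Siro.F 5 are called higher.

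Other genes of the pathway moved less evenly in NoRx.F. Among genes for assembly and maturation of the complexes, 14 of 29 tested rose and 1 fell, among them the copper chaperone COX17, higher by 0.94 ± 0.17, and TMEM70, an ATP synthase assembly factor, higher by 0.85 ± 0.14. TTC19, which acts on complex III, fell by 1.11 ± 0.25. Of 8 Krebs cycle genes 4 rose and 1 fell, with malate dehydrogenase MDH2 higher by 0.84 ± 0.12 and citrate synthase CS at 0.04 ± 0.09. Of 5 carrier and channel genes 3 rose, among them the ADP/ATP carrier SLC25A5 by 1.09 ± 0.13. Of 9 genes that act in transcription of mitochondrial or nuclear subunit genes, 0 rose and the helicase gene TWNK fell by 0.48 ± 0.15. TFAM, which packages and transcribes mitochondrial DNA, differed by -0.20 ± 0.18 and NRF1, a regulator of nuclear subunit genes, by -0.21 ± 0.13.

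Cell cycle genes were high on the same arrays. All 16 tested genes of the cell cycle list rose in NoRx.F, with a median of 2.52, and their mean was 8.66 to 9.96 there against 6.30 to 7.55 in healthy arrays. With that mean as a covariate, 6 of the 63 respiratory chain genes passed in NoRx.F in place of 45. The median difference of the 63 genes was then 0.21 in place of 0.58, and ATP5IF1 and ATP5MC1 were still higher, by 0.83 and 0.75. No NoRx.F array lies inside the healthy range of the cell cycle mean, so that the group and the covariate cannot be fully told apart. In Bela.Siro.F 25 of the 63 genes and 1 of 16 cell cycle genes rose, and the cell cycle mean was above the highest healthy array on 3 of 7 arrays. In Auto.D36 9 of the 63 genes were called and 14 of 16 cell cycle genes rose, with 4 of 4 arrays above. Of 10 tested monocyte and myeloid markers 3 rose in NoRx.F, and with their mean as a covariate 46 of the 63 genes passed.

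**Figure D3:**
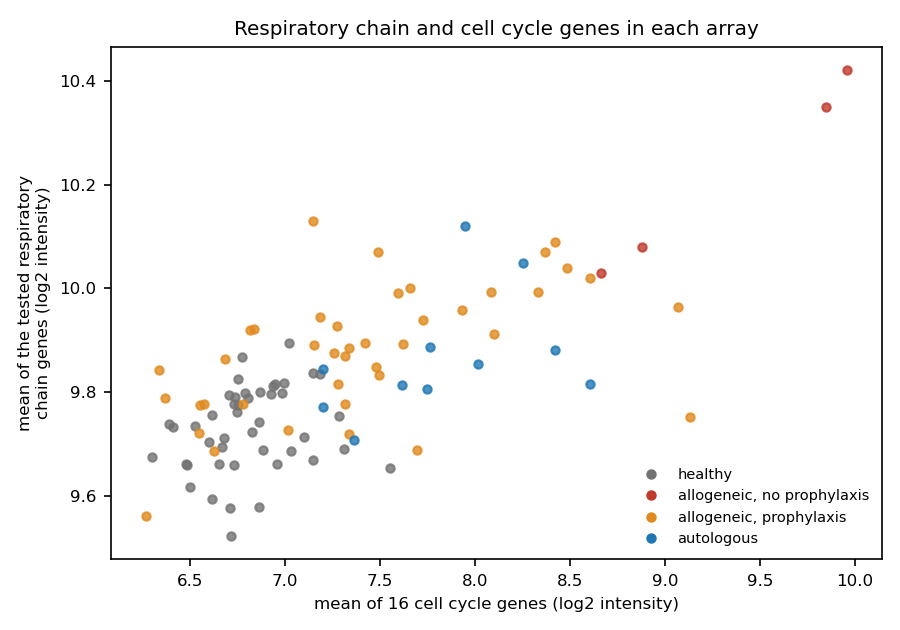
Mean log2 intensity of the 63 respiratory chain genes against the mean of 16 cell cycle genes, a point for each array. The NoRx.F arrays hold cell cycle means of 8.66 to 9.96, above the healthy range of 6.30 to 7.55.

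Under sirolimus alone few of the genes differed from healthy controls. In Siro.F 5 of 63 rose and 0 fell, which is 7.94% against a background of 8.91%, with a median difference of 0.14 and 14 genes at an unadjusted p under 0.05. COX7A1 rose by 0.91 ± 0.19 (limma adjusted p = 0.000642), with 9.68 in R.13, 9.62 in R.18, 8.73 in R.17 and 8.84 in R.16. R.13 and R.18 exceeded every healthy array, R.17 and R.16 did not, and without R.13 or without R.18 the count fell to 2. The mean of the 63 genes was 10.07 in R.13 and 9.96 in R.18, against 9.72 in R.17 and 9.69 in R.16. R.13 and R.18 lie in batch 2 and R.17 and R.16 in batch 1, so animal and batch cannot be told apart in this split. ATP5MC1, which encodes the membrane subunit c of the ATP synthase, rose by 0.54 ± 0.11, and COX6B1 by 0.37 ± 0.11. On the same arrays 15 of 16 cell cycle genes rose, with a median of 1.21, and so did 2 of 5 plasma cell markers. With the cell cycle mean as a covariate 1 of the 63 genes passed.

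Under tacrolimus with methotrexate more of the genes passed in the later arrays, and the difference between the times was not tested. In Tac.Mtx.D14 only ATP5MC1 passed, higher by 0.60 ± 0.13, against a background of 0.88%, although 59 of the 63 differences were above 0, and without R.21 or without R.20 no gene passed. In Tac.Mtx.F 18 rose and 1 fell, 30.2% against a background of 14.3% (28.6% higher against 6.9%), with a median of 0.30. Complex I gave 10 of them and complex V 4. UQCRB was higher by 1.15 ± 0.32, NDUFA9, an accessory subunit of complex I, by 0.57 ± 0.17, and NDUFAF3, an assembly factor, by 0.64 ± 0.19. NDUFV3, an accessory subunit, fell by 0.53 ± 0.18. Of 16 cell cycle genes 13 rose in Tac.Mtx.F, with a median of 1.01, and of 10 myeloid markers 2 rose. Without R.21 or without R.20 the count was 4, and with the cell cycle mean as a covariate it was 1.

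Under belatacept with sirolimus, the share of the genes called higher in Bela.Siro.F was above the background. In Bela.Siro.F 25 of 63 rose and 0 fell, 39.7% against a background of 10.0% (5.23% higher), with a median of 0.22. Complex I gave 11 of 24 tested genes, complex V 7 of 14, complex IV 5 of 8, complex III 1 of 6 and complex II 0 of 3. Median differences were 0.23 in complex I, 0.08 in II, 0.29 in III, 0.36 in IV and 0.22 in V. NDUFS8, a core subunit with iron-sulfur clusters, rose by 0.59 ± 0.12, NDUFAF3 by 0.61 ± 0.14, COX7A1 by 0.60 ± 0.16 and COX7A2 by 0.47 ± 0.13. Of 10 myeloid markers 4 rose here, their mean was 6.93 to 9.36 against 5.08 to 7.94 in healthy arrays, and with it as a covariate 7 of the 63 genes passed. Without R.66 the count was 16. In Bela.Siro.D14 6 rose and 0 fell against a background of 2.68%, and in Bela.Siro.D30 3 rose and 0 fell against 1.14%. COX7A1 was higher by 0.74 ± 0.22 and 1.06 ± 0.26 at these times, and without R.42 the counts at both times were 0.

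KY1005 recipients gave few calls. In KY1005.D14 and KY1005.F the only gene that passed was ATP5MC1, against backgrounds of 0.202% and 3.28%, with 13 genes at an unadjusted p under 0.05 in each. It did not pass in KY1005.D14 without either array, nor in KY1005.F without R.206. With 2 arrays, KY1005.D14 had 12 genes for which both arrays exceeded every healthy array, against 2.12% of all probe sets. Its mean of the 63 genes was 9.99 in R.210 and 9.91 in R.212, both above every healthy array. The same held for 1 of 3 arrays of KY1005.F. The median difference was 0.15 in KY1005.D14, with 50 of 63 above 0, and 0.07 in KY1005.F, with 37 above 0. In KY1005.Siro.D14 4 rose and 0 fell against 4.15%: NDUFA13 by 0.47 ± 0.13, ATP5MC1 by 0.45 ± 0.12, NDUFB7 by 0.36 ± 0.11 and NDUFS6 by 0.32 ± 0.09. For NDUFS6 the mean of its probe sets gave -0.04 and did not pass. In KY1005.Siro.D28 3 rose and 3 fell, 9.52% against a background of 12.1%. In KY1005.Siro.F 2 rose and 3 fell, 7.94% against 6.84%. Markers of other cells were high in KY1005.Siro.F: 6 of 10 myeloid, 3 of 6 granulocyte and 2 of 4 erythroid markers rose, and 1 of 4 T cell markers fell. The myeloid mean was 5.60 in R.217, 10.88 in R.219, 9.09 in R.220 and 9.18 in R.221, against 5.08 to 7.94 in healthy arrays. The mean of the T cell markers was 9.80 in R.219, below the healthy range, and 10.21 to 10.33 in the others. With the myeloid mean as a covariate 3 of the 63 genes passed in KY1005.Siro.F, of them 1 higher and 2 lower. Within batch 6 alone, 0 of the genes passed in KY1005.D14, KY1005.F, KY1005.Siro.D14 and KY1005.Siro.F and 2 in KY1005.Siro.D28. Single arrays also moved these counts, to 2 in KY1005.Siro.D14 without R.217, R.220 or R.221, to 2 in KY1005.Siro.D28 without R.221, and in KY1005.Siro.F to 2 without R.219 or R.220 and 1 without R.221.

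SDHA was among the few genes that fell. The calls were in KY1005.Siro.D28 and KY1005.Siro.F, where the share of genes called was below or close to the background. It was 10.08, 10.17, 10.24, 9.98 and 10.10 in R.217, R.218, R.219, R.220 and R.221 of KY1005.Siro.D28, against 9.92 to 10.87 in healthy arrays. All 5 lay below the healthy median of 10.43 and inside the healthy range, and SDHA fell by 0.39 ± 0.13 (limma adjusted p = 0.028), which did not pass in 3 of the 5 fits without 1 of these arrays. In KY1005.Siro.F it was 10.21 in R.217, 10.17 in R.219, 9.48 in R.220 and 10.16 in R.221 and fell by 0.50 ± 0.13 (limma adjusted p = 0.013), and without R.220, the difference was -0.32 and did not pass. With the myeloid mean as a covariate it was -0.54 (limma adjusted p = 0.0278). The assembly factor NDUFAF1 fell by 0.87 ± 0.18 in KY1005.Siro.D28, and the entry ATP5G1 by 0.75 ± 0.15 on its brighter probe set. The dimmer ATP5G1 probe set gave 0.07 (limma adjusted p = 0.743), and ATP5MC1, the current name of that gene, rose by 0.41 ± 0.12 on the same arrays. From day 14 to the late arrays of KY1005.Siro only NDUFA12, an accessory subunit of complex I, passed, with a fall of 0.60 ± 0.15 against a background of 1.25%, and the animal as a fixed block left 0, as did leaving out R.218 or R.221 of day 14 or R.219 or R.220 of the late arrays.

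**Figure D4:**
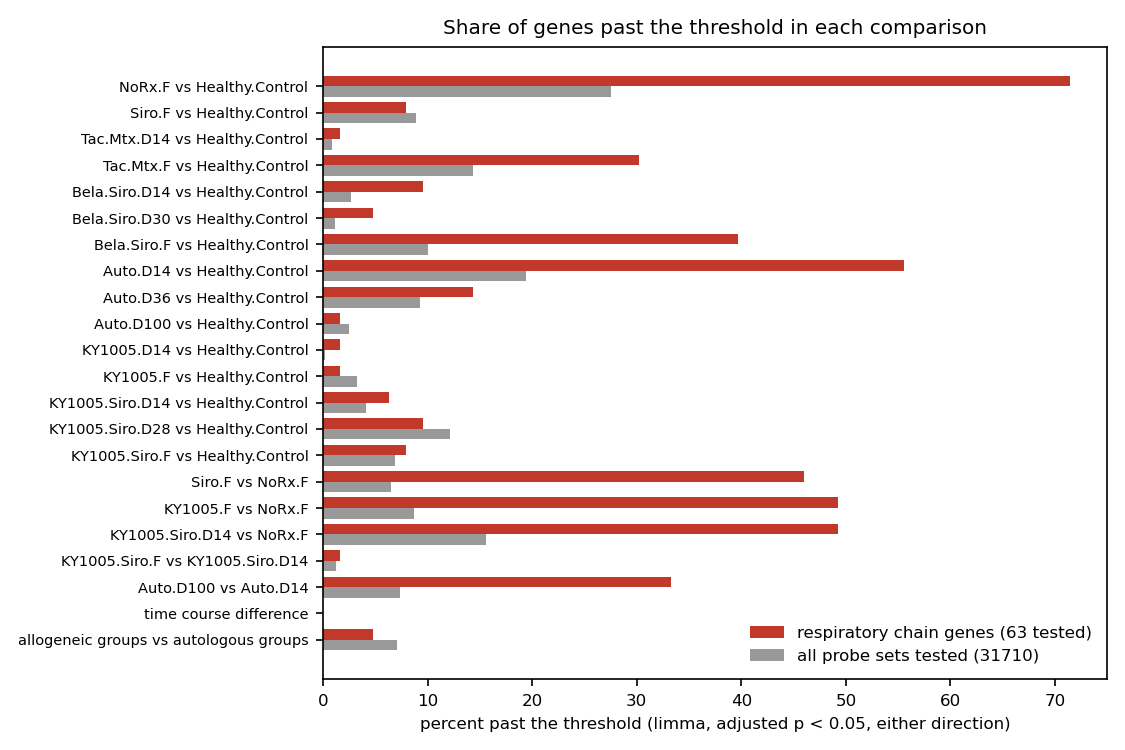
Percent of the 63 respiratory chain genes past the threshold beside the percent of all 31710 probe sets, for each comparison. The share is 71.4% against 27.5% in NoRx.F and 7.94% against 8.91% in Siro.F.

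Siro.F, KY1005.F and KY1005.Siro.D14 were set directly against NoRx.F and had lower levels of many of the genes. In Siro.F 27 of 63 were lower and 2 higher, 46.0% against a background of 6.46% (42.9% lower against 3.38%). In KY1005.F 30 were lower and 1 higher, 49.2% against 8.74% (47.6% lower against 4.07%). In KY1005.Siro.D14 30 were lower and 1 higher, 49.2% against 15.6% (47.6% lower against 8.2%). These comparisons share the 4 NoRx.F arrays, which are from days 6 to 12. Siro.F is from days 12 to 24, KY1005.F from days 16 to 23 and KY1005.Siro.D14 from day 14. Regimen and day after transplant therefore cannot be fully told apart here. ATP5IF1 was lower by -1.04 ± 0.12 in Siro.F, -1.11 ± 0.15 in KY1005.F and -1.12 ± 0.14 in KY1005.Siro.D14, and NDUFB3 by -0.72 ± 0.16, -0.86 ± 0.21 and -0.98 ± 0.19. COX7A2 was higher by 0.83, 1.07 and 1.11 on its brightest probe set. COX7A1, which rose in both NoRx.F and Siro.F, differed by -0.16 between them (limma adjusted p = 0.79). NoRx.F and KY1005 arrays share no batch, and fitting only the groups compared left 0 calls for Siro.F, 18 for KY1005.Siro.D14 and 16 for KY1005.F. With the cell cycle mean as a covariate the counts were 8 for Siro.F, 2 for KY1005.Siro.D14 and 7 for KY1005.F. Without R.50, R.52, R.17 or R.16 the Siro.F count was 17, and without R.212, R.52, R.50 or R.211 the KY1005.F count was 16, 17, 18 or 20.

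Among autologous recipients many of the genes were higher than in healthy controls at day 14, and none passed as higher at day 100. In Auto.D14 33 of 63 rose and 2 fell, 55.6% against a background of 19.4% (52.4% higher against 8.41%), with a median of 0.40. NDUFB3 was 11.29 in R.201, 11.03 in R.202 and 10.52 in R.200 and rose by 1.03 ± 0.17, with R.200 inside the healthy range. COX7A1 rose by 1.12 ± 0.25 and NDUFA6, an accessory subunit of complex I, by 0.83 ± 0.16. UQCRC2 was 8.04 in R.201, 7.44 in R.202 and 9.42 in R.200, and fell by 1.22 ± 0.36. The actin ratio was 3.30 in R.201, 3.38 in R.202 and 0.44 in R.200. Without R.201 or R.202 alone the count was 16 or 13. Leaving out the 6 arrays of high ratio left 0 calls, but R.200 then stood alone for Auto.D14, with its spread assumed to be that of the other groups, and the part of the ratio in these calls was not tested. The animal as a fixed block in the 3 animals measured at all times also left 0.

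In Auto.D36 8 rose and 1 fell, 14.3% against 9.26%. ATP5IF1 was 9.58 in R.62, 9.70 in R.200, 9.70 in R.201 and 9.63 in R.202. All 4 lay above the highest healthy array, which held for no other of the 63 genes in this group and for 0.473% of all probe sets. In Auto.D14 it held for 6 genes, against 0.722%. ATP5IF1 rose in Auto.D36 by 0.47 ± 0.10 (limma adjusted p = 0.00073). It did not pass with the cell cycle mean as a covariate (0.28, limma adjusted p = 0.331), with the animal as a fixed block (0.48, limma adjusted p = 0.0846) or as the mean of its probe sets (0.14, limma adjusted p = 0.289). Both the covariate and the fixed block left 0 of the 63 genes called in Auto.D36, where 14 of 16 cell cycle genes rose. Without R.200 or R.201 the count of genes called was 3, and without R.62 or R.202 it was 5. In Auto.D100 0 rose and 1, COX8A, fell against a background of 2.48%, with 7 genes at an unadjusted p under 0.05, and without R.200, R.201 or R.202 it did not pass. From Auto.D14 to Auto.D100, 19 fell and 2 rose, 33.3% against 7.35% (30.2% lower against 1.78%). NDUFB3 fell by 0.86 ± 0.18 and COX7A1 by 1.10 ± 0.26. Without R.201 or R.202 at day 14, or without all arrays of high actin ratio, 0 passed. The count was 36 without R.200 at day 14 and 11 to 13 without R.200, R.201 or R.202 at day 100. R.200 fell by 0.12 in its own mean of the 63 genes where R.201 fell by 0.32 and R.202 by 0.34. The change from day 14 to about day 100 differed between KY1005.Siro and autologous recipients for 0 of 63 genes by limma (background 0.0%), with 14 at an unadjusted p under 0.05.

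ATP5MC1 and COX8A stood apart between allogeneic and autologous groups. These genes and the comparison were chosen after their values were seen. ATP5MC1, the subunit c gene, passed as higher than healthy controls in 12 of 12 allogeneic groups and in 0 of 3 autologous groups on its brighter probe set. The groups are not independent, because they share the control arrays and animals recur among them. The 45 allogeneic arrays came from 27 animals and the 11 autologous arrays from 5. How many of all probe sets show this pattern was not counted. Its second probe set passed in 10 of 12 and in 1 of 3, not in KY1005.Siro.D14 or Bela.Siro.D30 but in Auto.D36 (0.56). The entry ATP5G1 did not share the pattern: it was higher in 1 of 12 allogeneic groups, lower in 1, and higher in 1 of 3 autologous groups, Auto.D14 (0.75, limma adjusted p = 0.00521). The ATP5MC1 values of the brighter probe set ran from 9.29 to 10.23 (median 9.68) over 45 allogeneic arrays, from 9.08 to 9.91 (median 9.36) over 11 autologous arrays and from 8.72 to 9.52 (median 9.13) in healthy arrays. All 45 allogeneic arrays lay above the healthy median, as did 10 of the 11 autologous arrays. Above the highest healthy array lay 35 of the allogeneic and 3 of the autologous arrays. Differences from healthy controls were 0.41 to 0.81 in allogeneic groups. In autologous groups they were 0.36 in Auto.D14 (limma adjusted p = 0.0685), 0.30 in Auto.D36 (limma adjusted p = 0.0885) and 0.04 in Auto.D100 (limma adjusted p = 0.929). The mean of the allogeneic groups was higher than that of the autologous groups by 0.37 ± 0.10 (limma adjusted p = 0.0129), and it passed in each of 56 fits that left out 1 array. Of the 63 genes 2 were higher and 1 lower in this comparison, 4.76% against a background of 7.07%. That count was 8 without R.200 of Auto.D14 and 5 without R.38 of Bela.Siro.D14, R.217 of KY1005.Siro.F or R.18 of Siro.F. Within the batches that hold each group, ATP5MC1 passed against healthy controls in 6 of 12 allogeneic groups, with differences of 0.41 to 0.81. Leaving out 1 array ended the call in 8 of the 12: without R.21 or R.20 in Tac.Mtx.D14, R.42 in Bela.Siro.D14 and Bela.Siro.D30, either array in KY1005.D14, R.206 in KY1005.F, R.220 in KY1005.Siro.D14, R.219 or R.221 in KY1005.Siro.D28, and R.219 or R.221 in KY1005.Siro.F. It passed in 9 of 12 without the high-ratio arrays and in 10 of 12 with either the cell cycle or the myeloid mean as a covariate.

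COX8A, a small subunit of complex IV, was lower in autologous groups. It ran from 7.86 to 8.86 in the 11 autologous arrays, from 8.29 to 9.59 in the 45 allogeneic arrays and from 7.83 to 9.93 in healthy arrays. All 11 autologous arrays lay below the healthy median of 9.21, as did 33 of 45 allogeneic arrays, and none fell below the lowest healthy array. The autologous animals were already below that median when healthy, at 8.44 in R.60, 8.25 in R.62, 8.95 in R.200, 8.83 in R.201 and 8.89 in R.202. Allogeneic animals with a healthy array had 8.54 in R.13, 9.06 in R.16, 9.24 in R.206, 9.29 in R.49, 9.47 in R.53 and 9.81 in R.18. Animal and transplant type therefore cannot be fully told apart for COX8A. COX8A fell by 0.94 ± 0.28 in Auto.D14, 0.74 ± 0.22 in Auto.D36 and 0.85 ± 0.23 in Auto.D100. With the animal as a fixed block the differences were -0.43, -0.69 and -0.50, and none passed. With the cell cycle mean as a covariate they were -0.74, -0.55 and -0.75, and none passed. COX8A in Auto.D100 also did not pass with a random animal block (-0.79) or no batch term (-0.60), nor did it pass in Auto.D14 with no batch term (-0.61). Within the batches that hold each group it passed in Auto.D14 (-1.05) and not in Auto.D36 (-0.70) or Auto.D100 (-0.81). The call ended without R.202 in Auto.D14, and on leaving out R.200, R.201 or R.202 in Auto.D36 and in Auto.D100. Allogeneic groups were higher than autologous groups by 0.84 ± 0.19 (limma adjusted p = 0.00328), by 0.55 with no batch term, and by 0.65 without the high-ratio arrays, where it did not pass (limma adjusted p = 0.0538). NDUFAF1, the gene that was lower in allogeneic groups (-0.53 ± 0.16), did not pass with no batch term (-0.22).

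**Figure D5:**
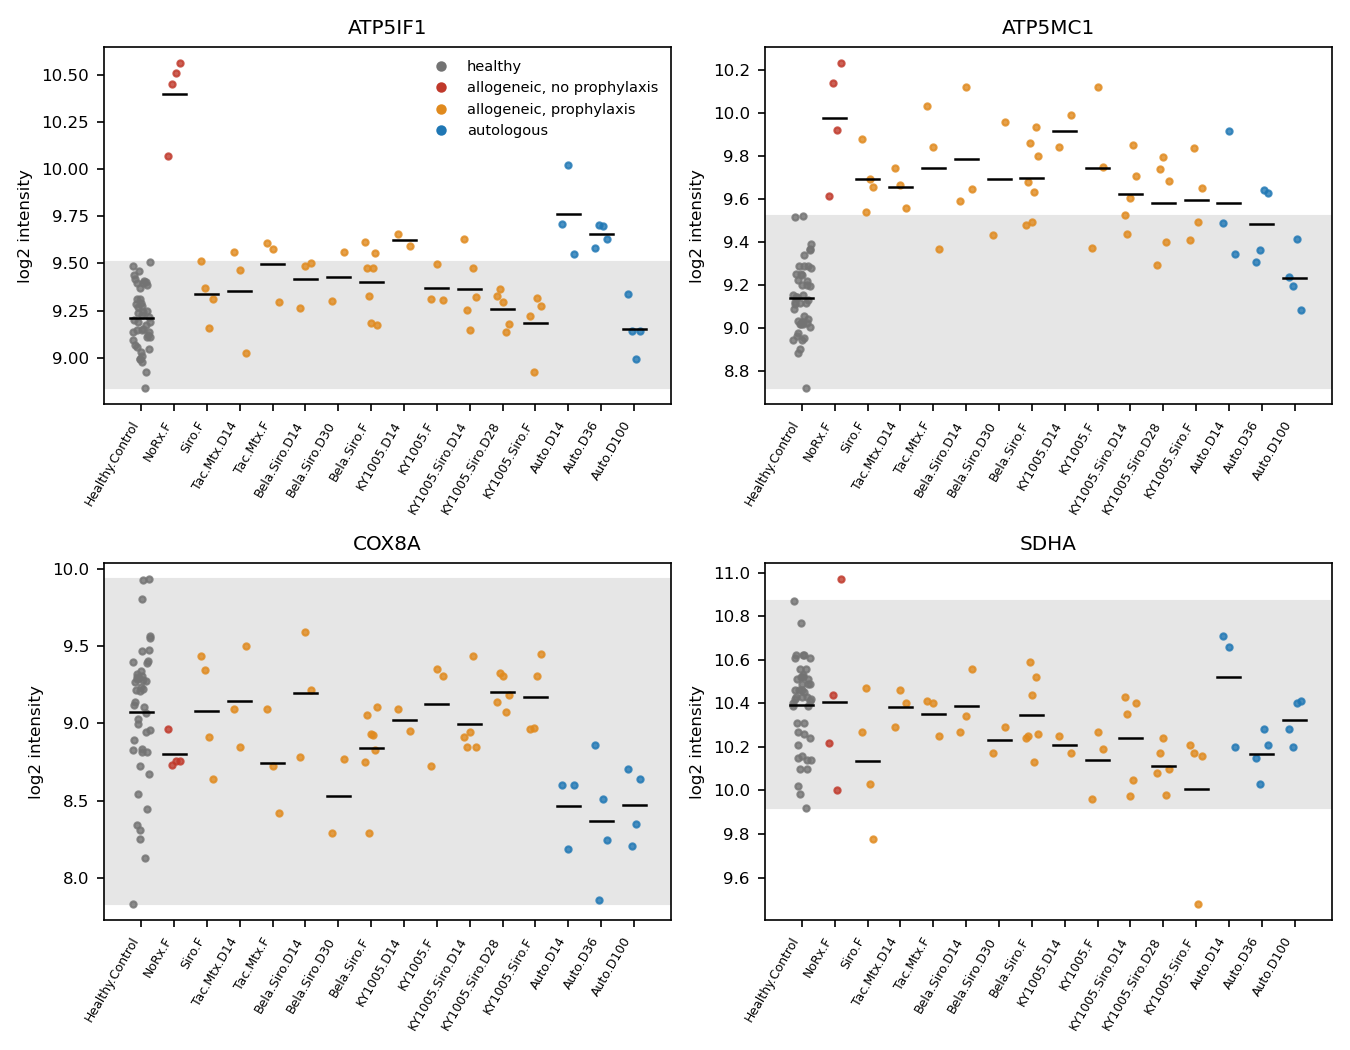
Log2 intensity of ATP5IF1, ATP5MC1, COX8A and SDHA in each array, by group. ATP5IF1 is 10.07 to 10.56 in NoRx.F, and COX8A is 7.86 to 8.86 in the autologous arrays.

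The animals that were also measured when healthy, 11 in all, gave a comparison within animals, described without a test and with no batch term. The healthy and later arrays lay in different batches for R.16 and R.206, and for R.200, R.201 and R.202 at days 14 and 100. In those pairs batch and transplant cannot be told apart. The other pairs shared a batch. In NoRx.F, R.53 had 52 of 63 genes above its own healthy array. In Siro.F, R.13 had 54 and R.18 had 53 higher, but R.16 had 19, with a change of its mean of -0.10. R.206 of KY1005.F had 54 higher, and R.49 had 44 in Bela.Siro.D14 and 51 in Bela.Siro.F. In Auto.D14, R.200, R.201 and R.202 had 49, 47 and 49 higher, and at day 100 the same animals had 35, 25 and 25. In Auto.D36, R.62 had 53 higher, and R.200, R.201 and R.202 had 42, 37 and 35. R.60 of Auto.D100 had 53 higher, with a change of its mean of 0.19. ATP5MC1 was above the animal's own healthy value on 7 of 7 allogeneic arrays, by 0.02 to 0.87, and on 9 of 11 autologous arrays. COX8A was below it on 9 of 11 autologous arrays and on 5 of 7 allogeneic arrays. These arrays came from 5 autologous and 6 allogeneic animals, so they are not independent. Among the autologous animals COX8A was lower in R.200, R.201 and R.202 at every time, and higher in R.60 (0.26) and R.62 (0.61).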

How the data were processed

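The deposited values are log2 RMA intensities, per the labels, which the authors made with RMA and affy, per the submitters' processing notes; the versions are not given in the sources used here. Among healthy arrays 0.274% of probe sets had a batch F-test p under 0.05 and 24.9% one above 0.95, so the values may have been adjusted for batch before deposition. The 2 healthy arrays of R.201 were averaged (101 arrays remained). Probe sets were kept where 3 or more arrays reached 5.21, the median of the whole table, and 99 control probe sets left out, which left 31710. All 16 groups and the 6 labelled batches were fitted together with limma 3.58.1 in R 4.3.3 and data.table (version 1.17.8), with Benjamini-Hochberg adjustment. Gene symbols came from the platform annotation. Named in each comparison were up to 6 largest rises and 6 largest falls past the threshold and a fixed set of subunits. The members, lists and rule were chosen with earlier results of these data known. Animals recur between groups, so the animal was also fitted as a block (consensus correlation 0.11). Other alternatives were no batch term, single batches, only the groups compared, no filter, quantile normalization, probe set means, cell cycle or myeloid covariates, and arrays left out. Replicates are separate animals. Promoter and protein sequences were not used here.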

Additional observations from a re-analysis of the deposited data

Results flagged for a closer look

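Of 136 values examined for an array far from the others of its group, 6 stood out, and chance alone gives about 1 in 20 such groups. In KY1005.Siro.D14, R.219 had a complex I mean of 9.81, where the other arrays had 9.98 to 10.02. The same array had a complex IV mean of 9.94, against 10.11 to 10.12. In the same group SDHC was 7.93 in R.221 and 9.18 to 9.40 in the others. In KY1005.Siro.F the complex V mean was 10.41 in R.219, against 10.64 to 10.68. That array of R.219 had a myeloid marker mean of 10.88 and a T cell marker mean of 9.80, and their part was not tested. In that group SDHA was 9.48 in R.220, against 10.16 to 10.21. In Auto.D100 the complex II mean was 9.72 in R.202, against 9.80 to 9.81.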

How the results depend on the processing

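In NoRx.F 45 genes were called, and 44 to 48 under no batch term, a random animal block, single batches, only the groups compared, no filter, quantile normalization, no high-actin arrays or the myeloid covariate, and 38 with probe set means. Differences of the genes followed, not all of them printed above, reversed only with probe set means. ATP5F1B went to -0.21 in NoRx.F and -0.56 in KY1005.Siro.D28, NDUFB7 to -0.21 in Tac.Mtx.F and NDUFS6 to -0.0415 in KY1005.Siro.D14. In Tac.Mtx.F probe sets of NDUFB7 passed the threshold in opposite directions. Of 409 counts under an alternative 124 moved by over 1.5 times. The causes were not tested.

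With the cell cycle covariate the counts called were 6 in NoRx.F, 1 in Siro.F, 1 in Tac.Mtx.F, 2 in Bela.Siro.D14, 9 in Auto.D14, 0 in Auto.D36, Auto.D100, KY1005.D14 and KY1005.F, and 3 in KY1005.Siro.F. Against NoRx.F they were 2 for KY1005.Siro.D14, 7 for KY1005.F and 8 for Siro.F, and over time 0 for KY1005.Siro.F and 12 for Auto.D100. With no batch term they were 9 in Siro.F, 29 in Tac.Mtx.F, 0 in Auto.D100, 6 in KY1005.D14, 9 in KY1005.Siro.D14 and 5 in KY1005.F. Within batches they were 2 in Siro.F, Auto.D100 and KY1005.Siro.D28, 0 in Bela.Siro.D30 and the other KY1005 groups, 15 for Siro.F against NoRx.F, and 0 for both late against early comparisons. Quantile normalization gave 9 in Siro.F, 2 in KY1005.F, 11 in KY1005.Siro.D28, 3 for KY1005.Siro.F against its day 14 and 34 for Auto.D100 against Auto.D14. The myeloid covariate gave 3 in Siro.F and KY1005.Siro.F, 1 in Bela.Siro.D14, 7 in Bela.Siro.F, 0 in KY1005.Siro.D14, 12 for Auto.D100 against Auto.D14 and 5 for allogeneic against autologous groups. Probe set means gave 2 in Tac.Mtx.D14, 5 in Bela.Siro.D30 and Auto.D36, 3 in KY1005.F and 19 for Siro.F against NoRx.F.

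Without high-actin arrays the counts were 0 in Auto.D14, KY1005.D14, KY1005.Siro.F and Auto.D100 against Auto.D14, 1 in KY1005.Siro.D28 and for allogeneic against autologous groups, 20 for KY1005.F against NoRx.F and 2 for KY1005.Siro.F against its day 14. With only the groups compared they were 0 in Auto.D100, for Siro.F against NoRx.F and for both time comparisons, 3 in KY1005.Siro.F, and against NoRx.F 18 for KY1005.Siro.D14 and 16 for KY1005.F. The random animal block gave 0 in Auto.D100 and 2 for KY1005.Siro.F against its day 14, and changed no other count by over 1.5 times. As a fixed block, the animal gave 0 for that comparison; in the 3 autologous animals, a block added after the data were seen, it gave 0 in Auto.D14, Auto.D36 and Auto.D100 and 13 for Auto.D100 against Auto.D14.

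Leaving out single arrays gave 43 to 47 in NoRx.F, 2 to 6 in Siro.F, 0 to 2 in Tac.Mtx.D14, 4 to 16 in Tac.Mtx.F, 0 to 4 in Bela.Siro.D14, 0 to 2 in Bela.Siro.D30, 16 to 25 in Bela.Siro.F, 13 to 43 in Auto.D14, 3 to 5 in Auto.D36, 0 to 1 in Auto.D100, 0 to 0 in KY1005.D14, 0 to 1 in KY1005.F, 2 to 5 in KY1005.Siro.D14, 2 to 8 in KY1005.Siro.D28 and 1 to 5 in KY1005.Siro.F. Against NoRx.F it gave 24 to 35 for KY1005.Siro.D14, 16 to 34 for KY1005.F and 17 to 32 for Siro.F. It gave 0 to 2 for KY1005.Siro.F against its day 14, 0 to 36 for Auto.D100 against Auto.D14, 0 to 2 for the difference of the time courses and 2 to 8 for allogeneic against autologous groups.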
